A study of Mus musculus with 14 samples.

Results

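The Hox genes of the 4 mammalian clusters were followed in mouse embryonic fibroblasts that had received SKO together with HDAC7, MEF2C or an empty Flag vector, or had received GFP. Members were genes with an annotated symbol of Hoxa, Hoxb, Hoxc or Hoxd and a number, and 37 of them are described among 19935 genes, each by 1 probe set. Hoxb8 shared its probe set with Hoxb7 and was left out. The measured genes were 10 in the Hoxa cluster on chromosome 6, 9 in the Hoxb cluster on chromosome 11, 9 in the Hoxc cluster on chromosome 15 and 9 in the Hoxd cluster on chromosome 2.

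The cells of all groups were fibroblasts of the ICR strain, grown in a medium for embryonic stem cells and separated from feeder cells before RNA was taken. The groups were SKO+HDAC7, SKO+MEF2C and SKO+Flag, with 2 arrays each at day 6 and at day 10, and GFP, with 1 array at each day, which gave 14 Affymetrix whole-transcript arrays. All groups other than GFP therefore carried SKO, a name that the labels do not spell out. The promoters that drove the transduced genes are not given in the sources used here, and nothing says that the 2 experiments of a group were separate cultures, so the spread behind each p-value could be that of technical repeats. A note naming a pre-iPSC sample stands on all 14 arrays and was not used. Hdac7 and Mef2c were high where the labels name them, with log2 differences in limma of 4.28 for Hdac7 in SKO+HDAC7 against SKO+Flag and 3.07 for Mef2c in SKO+MEF2C against SKO+Flag. Of 3 reprogramming factors read as a check of SKO, Pou5f1 was higher in SKO+Flag than in GFP by 6.75. Sox2 read 5.04 to 5.37 on the 12 SKO arrays, against 5.27 on the day 10 and 4.93 on the day 6 GFP array, and was called in no arm. Klf4 read 8.80 to 9.18 on the SKO arrays, against 8.66 on the day 10 and 8.93 on the day 6 GFP array, and was called higher in SKO+HDAC7 alone (0.21, limma adjusted p = 0.0466). For both genes the SKO and GFP arrays overlapped. The question that the design sets is how HDAC7, a class IIa histone deacetylase, or MEF2C, a MADS-box transcription factor that class IIa deacetylases bind, changes the transcripts of SKO fibroblasts, with GFP fibroblasts as a second control.

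Hox genes encode homeodomain transcription factors that give cells along the body axis and the limb their positional identity. Within a cluster the genes lie in the order in which they are used, from low-numbered genes for the head and neck to high-numbered genes for the tail and the ends of the limbs, and genes of the same number in different clusters are paralogs with partly shared roles. Fibroblasts keep the Hox pattern of the place they came from through culture, and Polycomb and trithorax complexes hold these genes silent or active. Hox proteins bind DNA with TALE homeodomain partners of the Pbx, Meis and Pknox families.

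To show the sequence upstream of members whose values are given array by array or by range below, the 250 bases before the RefSeq transcription start (build GRCm38.p6) are printed for 5 of them. Of the 37 members, 21 matched the table, with 23 windows. The capitals mark a match to the MEF2 box, searched as CTANNNNTA on both strands. N stands for any base, so the pattern is loose and a match need not be a MEF2 site. Hoxa5 and Hoxa6 are shown because they were lower when HDAC7 or MEF2C was added to SKO, Hoxa9 because it was higher in all 3 SKO arms than in GFP, Hoxd4 because it was higher in SKO+HDAC7 and SKO+Flag than in GFP, and Hoxa11 because it was lower in all 3 SKO arms than in GFP.
Hoxa5, chr6:52204588-52204837, minus strand: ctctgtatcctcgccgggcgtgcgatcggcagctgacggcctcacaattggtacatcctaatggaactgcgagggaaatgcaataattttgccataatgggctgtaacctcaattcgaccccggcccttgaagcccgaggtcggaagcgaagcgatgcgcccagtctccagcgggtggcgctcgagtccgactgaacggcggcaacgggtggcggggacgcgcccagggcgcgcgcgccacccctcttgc
Hoxa6, chr6:52208673-52208922, minus strand: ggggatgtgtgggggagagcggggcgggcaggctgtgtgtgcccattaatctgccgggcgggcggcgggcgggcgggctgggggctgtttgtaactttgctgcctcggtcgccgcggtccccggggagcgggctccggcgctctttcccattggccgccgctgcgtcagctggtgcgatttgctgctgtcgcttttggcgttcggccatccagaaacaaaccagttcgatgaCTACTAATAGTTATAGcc
Hoxa9, chr6:52227371-52227620, minus strand: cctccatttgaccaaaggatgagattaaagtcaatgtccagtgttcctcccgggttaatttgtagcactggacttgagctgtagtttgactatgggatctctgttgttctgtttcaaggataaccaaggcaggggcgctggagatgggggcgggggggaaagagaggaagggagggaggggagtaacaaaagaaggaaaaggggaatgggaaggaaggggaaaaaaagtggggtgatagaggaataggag
Hoxa11, chr6:52245811-52246060, minus strand: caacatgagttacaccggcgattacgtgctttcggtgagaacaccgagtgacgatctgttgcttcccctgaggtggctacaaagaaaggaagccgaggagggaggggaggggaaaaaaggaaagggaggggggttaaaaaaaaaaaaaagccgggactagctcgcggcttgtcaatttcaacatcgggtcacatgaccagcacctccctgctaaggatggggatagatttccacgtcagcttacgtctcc
Hoxd4, chr2:74721728-74721977, plus strand: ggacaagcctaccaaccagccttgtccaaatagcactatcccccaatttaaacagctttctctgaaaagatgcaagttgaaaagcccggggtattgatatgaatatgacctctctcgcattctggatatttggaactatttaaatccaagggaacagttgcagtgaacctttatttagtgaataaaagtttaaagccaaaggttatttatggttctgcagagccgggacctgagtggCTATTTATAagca

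Hoxa6 held 3 overlapping matches to the MEF2 box, at 18, 17 and 11 bases before the start, and Hoxd4 held 1 at 13 bases before it. Over windows of 300 bases, which add the 50 bases after the start, the MEF2 box matched in 5 of 23 Hox windows (Hoxa2, Hoxa5, Hoxa6, Hoxa10 and Hoxd4) and in 21% of all 32851 promoter windows. The octamer ATGCAAAT, the letters that POU factors such as Pou5f1 read, matched in 0 of 23 Hox windows and in 1.74% of all windows. The KLF box CCACACCC matched in 1 Hox window (Hoxa2) and in 3.56% of all windows. The PBX-HOX site TGATTNAT matched in 2 Hox windows (Hoxa2 and Hoxd11) and in 3.22% of all windows. The Hox windows had a median GC content of 59.2%, between 40.4% and 80%, against 52.4% for all windows. Each match describes letters and not a bound site.

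Values are deposited on the log2 scale, and the median of an array lay between 5.68 and 5.76. With no detection calls in hand, the 95th percentile of 1015 olfactory receptor genes on each array, between 5.12 and 5.33, was taken as a gauge of background. It is a low bar: 30 of 37 Hox genes (81.1%) lay above it on all 14 arrays, against 61.8% of all genes, so lying above it does not show expression. Between replicate arrays the SD of differences over all probe sets was 0.120 to 0.172, and precision is limited by how few arrays there are.

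Of the 7 Hox genes not above the gauge on every array, most lay towards the ends of their clusters. In the Hoxc cluster, Hoxc4 to Hoxc10 lay above the gauge on all 14 arrays, and Hoxc11, Hoxc12 and Hoxc13, the genes of the hindmost trunk and tail, on none. Hoxb13, which marks the tail bud and the prostate, was above it on 1 array. At the opposite end, Hoxa2, a hindbrain and second-arch gene, was above it on 11 arrays and Hoxd1 on 13. Hoxb1 and Hoxb2, at the same end of the Hoxb cluster, were above it on all 14. Of the distal limb genes, Hoxd12 was above it on 12 arrays, and Hoxa13 and Hoxd13 were above it on all 14. The 22 Hox genes above the array median on every array and the 7 below it on every array were measured by different probe sets, so their levels are not set against each other.

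All 3 SKO arms had lower levels of Hoxb9, Hoxc8, Hoxc5, Hoxc6, Hoxa11 and Hoxc10 than GFP fibroblasts, with the largest differences in Hoxb9 and Hoxc8, and higher levels of Hoxa9. Hoxd4 was higher in SKO+HDAC7 and SKO+Flag. Called genes are those with a Benjamini-Hochberg adjusted p under 0.05 in a limma model of all 14 arrays and all 19935 genes, with the mean of both days compared. Against GFP, 2 Hox genes were called higher and 11 lower in SKO+HDAC7, where 17.5% of all genes were higher and 15.9% lower. In SKO+MEF2C 1 was higher and 11 lower, where 16.6% of all genes were higher and 14.6% lower. In SKO+Flag 2 were higher and 11 lower, where 17.5% of all genes were higher and 18.2% lower. In either direction 35.1% of Hox genes were called in SKO+HDAC7 (33.4% of all genes), 32.4% in SKO+MEF2C (31.3% of all genes) and 35.1% in SKO+Flag (35.7% of all genes), so the total was near the background. Their median log2 difference was -0.12 in SKO+HDAC7 (-0.01 over all genes), -0.13 in SKO+MEF2C (-0.03 over all genes) and -0.11 in SKO+Flag (-0.04 over all genes). The 3 comparisons share the 2 GFP arrays. In SKO+MEF2C the count of called Hox genes was 7 without the replicate 1 array of day 6.

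Without regard to the test, all 12 SKO arrays lay below both GFP arrays for 8 Hox genes (Hoxa11, Hoxb2, Hoxb4, Hoxb9, Hoxc5, Hoxc6, Hoxc8 and Hoxc10), a pattern that 11.9% of all genes had. They lay above both for Hoxa9 alone among the Hox genes, a pattern that 12% of all genes had. Hoxa9, Hoxa11, Hoxb9, Hoxc5, Hoxc6, Hoxc8 and Hoxc10 were called in all 3 arms, as were 22.6% of all genes, and 18 of 37 Hox genes were called in none, as were 54.9% of all genes.

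**Figure D1:**
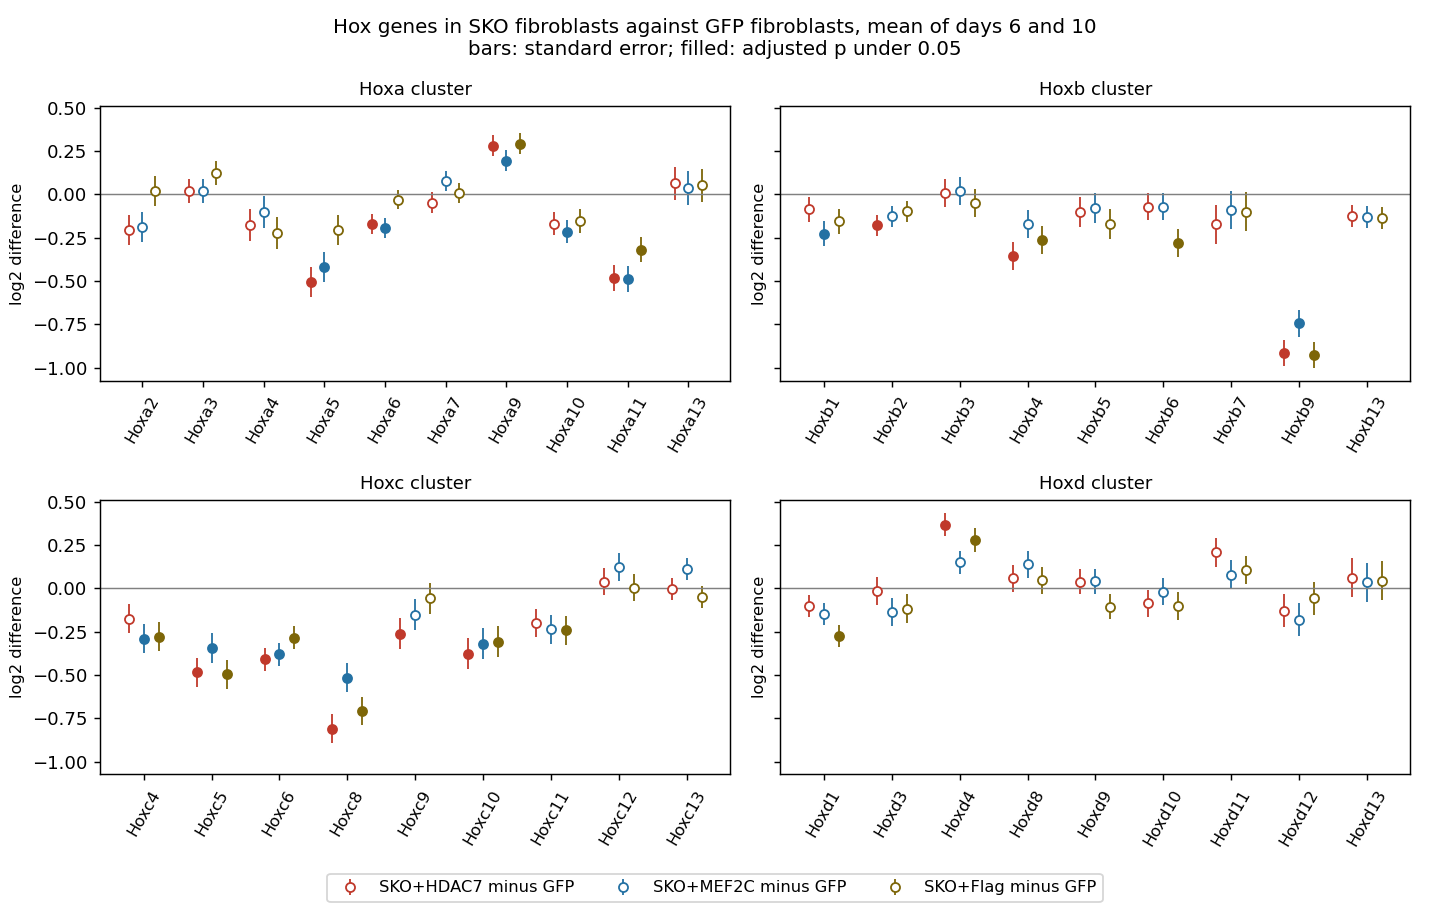
Log2 difference from GFP (vertical axis) of each measured Hox gene, in cluster order along the horizontal axis, for SKO+HDAC7, SKO+MEF2C and SKO+Flag as the mean of days 6 and 10. Bars are standard errors and filled points are called genes. Hoxb9 and Hoxc8 lie lowest, and the called points above 0 are Hoxa9 in all 3 arms and Hoxd4 in SKO+HDAC7 and SKO+Flag.

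Most of the fibroblast markers read were also called lower in the SKO arms than in GFP, but not all. Of 8 fibroblast genes, 7 lay above the gauge on all 14 arrays and Fap on 3. The mean of the 8 on an array was 9.03 to 9.47 in SKO+HDAC7, 9.43 to 9.56 in SKO+MEF2C, 9.27 to 9.50 in SKO+Flag, and 9.97 and 10.2 in GFP. Against GFP, 7 of 8 were called lower in SKO+HDAC7, 5 in SKO+MEF2C and 6 in SKO+Flag, and 0 higher in each. Over all genes 15.9%, 14.6% and 18.2% were called lower in these arms. Vim overlapped, at 12.64 to 12.90 on the SKO arrays against 12.80 at day 6 and 12.59 at day 10 in GFP. Prrx1 overlapped too, at 9.42 to 10.30 on the SKO arrays against 9.99 at day 6 and 9.89 at day 10 in GFP. The 7 in SKO+HDAC7 included Fap, which was below the gauge on every SKO+HDAC7 array (4.97 to 5.19). In GFP Fap read 5.64 at day 10 and 4.99 at day 6. In SKO+HDAC7 against SKO+Flag, 1 of the 8 was called higher and 4 lower, where 10.9% of all genes were called. Against SKO+MEF2C, 1 was called higher and 5 lower in SKO+HDAC7, where 22% of all genes were called. The part of the fibroblast genes in the Hox differences was not tested, and in bulk RNA fewer fibroblasts and less RNA per fibroblast cannot be told apart. The mean of 5 endothelial genes was 5.80 to 5.97 in SKO+HDAC7, 5.57 to 5.66 in SKO+MEF2C, 5.55 to 5.79 in SKO+Flag and 5.14 to 5.19 in GFP. Tek was the 1 endothelial gene called, higher in each arm (6.82 to 9.21 on the 12 SKO arrays against 5.13 and 5.14 in GFP), and Cdh5 was above the gauge on 0 arrays. Single genes of other marker lists were also called against GFP in all 3 arms, with Cd68 and Krt14 higher and Map2 lower, and their part was not tested either. Of 7 neural genes, 2 were called higher and 1 lower in SKO+HDAC7, 3 higher and 1 lower in SKO+MEF2C, and 1 lower in SKO+Flag.

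Among the genes of the thoracic and lumbar trunk, Hoxb9, which patterns the ribs, differed most. In SKO+HDAC7 it read 6.52 and 6.51 at day 10 and 6.61 and 6.65 at day 6. In SKO+MEF2C it read 6.70 and 6.65 at day 10 and 6.94 and 6.68 at day 6, and in SKO+Flag 6.66 and 6.49 at day 10 and 6.58 and 6.51 at day 6. In GFP it read 7.60 at day 10 and 7.38 at day 6. The 12 SKO arrays stood apart below the GFP arrays, the closest being 1 SKO+MEF2C array at day 6. The log2 difference from GFP was -0.92 in SKO+HDAC7 (adjusted p = 2.13e-06), -0.74 in SKO+MEF2C (adjusted p = 1.51e-05) and -0.93 in SKO+Flag (adjusted p = 2.12e-06), each with an SE of 0.08 in limma. Hoxb9 was thus 1.89-fold lower in SKO+HDAC7, 1.68-fold lower in SKO+MEF2C and 1.90-fold lower in SKO+Flag.

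Hoxc8, which patterns lower thoracic vertebrae and motor neurons of the forelimb level, followed. In SKO+HDAC7 it read 6.66 and 6.61 at day 10 and 7.03 and 6.92 at day 6. In SKO+MEF2C it read 7.09 and 7.02 at day 10 and 7.02 and 7.25 at day 6, and in SKO+Flag 6.78 and 6.89 at day 10 and 6.86 and 7.09 at day 6. In GFP it read 7.78 at day 10 and 7.45 at day 6. No SKO array reached either GFP array, and the pair of SKO+HDAC7 arrays at day 10 was lowest. The log2 difference from GFP was -0.81 in SKO+HDAC7 (adjusted p = 1.26e-05), -0.52 in SKO+MEF2C (adjusted p = 0.000531) and -0.71 in SKO+Flag (adjusted p = 4.02e-05), each with an SE of 0.08 in limma.

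Hoxc5 and Hoxc6, which lie next to Hoxc8 and act at the neck and upper thorax, were lower as well. Hoxc5 read 5.82 to 5.97 in SKO+HDAC7, 5.90 to 6.18 in SKO+MEF2C and 5.62 to 5.98 in SKO+Flag (4 arrays each), against 6.26 and 6.47 in GFP. Its log2 difference from GFP, with an SE of 0.08 in limma, was -0.49 in SKO+HDAC7 (adjusted p = 0.000827), -0.34 in SKO+MEF2C (adjusted p = 0.00888) and -0.50 in SKO+Flag (adjusted p = 0.000734). Hoxc6 read 6.26 to 6.45 in SKO+HDAC7, 6.24 to 6.53 in SKO+MEF2C and 6.42 to 6.57 in SKO+Flag, against 6.73 and 6.85 in GFP. For neither gene did SKO and GFP arrays overlap. The log2 difference of Hoxc6, with an SE of 0.07 in limma, was -0.41 in SKO+HDAC7 (adjusted p = 0.000494), -0.38 in SKO+MEF2C (adjusted p = 0.000986) and -0.28 in SKO+Flag (adjusted p = 0.00587).

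Hoxc10, a gene of the lumbar cord and hindlimb, was lower by less. It read 5.58 to 5.69 in SKO+HDAC7, 5.54 to 5.84 in SKO+MEF2C and 5.51 to 5.83 in SKO+Flag, against 6.10 and 5.97 in GFP, with no overlap. The log2 difference, with an SE of 0.09 in limma, was -0.38 in SKO+HDAC7 (adjusted p = 0.00648), -0.32 in SKO+MEF2C (adjusted p = 0.0179) and -0.31 in SKO+Flag (adjusted p = 0.0198). In SKO+MEF2C the call was lost without the replicate 1 array of either day (adjusted p up to 0.054), and in SKO+Flag when the compared groups were fitted alone (adjusted p = 0.0799).

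In the Hoxa cluster the called genes differed in direction. Hoxa11, which builds the forearm and the uterus and whose upstream sequence is printed above, read 5.90 to 6.06 in SKO+HDAC7, 5.87 to 6.13 in SKO+MEF2C and 6.09 to 6.26 in SKO+Flag, against 6.34 and 6.60 in GFP. The SKO arrays all lay below the GFP arrays. The log2 difference, with an SE of 0.07 in limma, was -0.48 in SKO+HDAC7 (adjusted p = 0.000324), -0.49 in SKO+MEF2C (adjusted p = 0.000356) and -0.32 in SKO+Flag (adjusted p = 0.00576). Hoxa5, which patterns the neck and the airway, was called lower in SKO+HDAC7 (log2 difference -0.51, SE 0.09, limma adjusted p = 0.000685) and in SKO+MEF2C (-0.42, adjusted p = 0.00298). In SKO+Flag its difference was -0.20 (adjusted p = 0.0888).

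Hoxa9, a gene of blood progenitors and the posterior trunk, went the other way. It read 7.19 to 7.30 in SKO+HDAC7, 7.05 to 7.20 in SKO+MEF2C and 7.17 to 7.28 in SKO+Flag, against 6.98 and 6.91 in GFP. All 12 SKO arrays were higher than both GFP arrays. The log2 difference, with an SE of 0.06 in limma, was 0.28 in SKO+HDAC7 (adjusted p = 0.00434), 0.20 in SKO+MEF2C (adjusted p = 0.0343) and 0.29 in SKO+Flag (adjusted p = 0.00339). In SKO+MEF2C the call was lost after quantile normalization, with the compared groups fitted alone (adjusted p up to 0.18), and without the replicate 1 array of either day (adjusted p up to 0.0977).

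**Figure D2:**
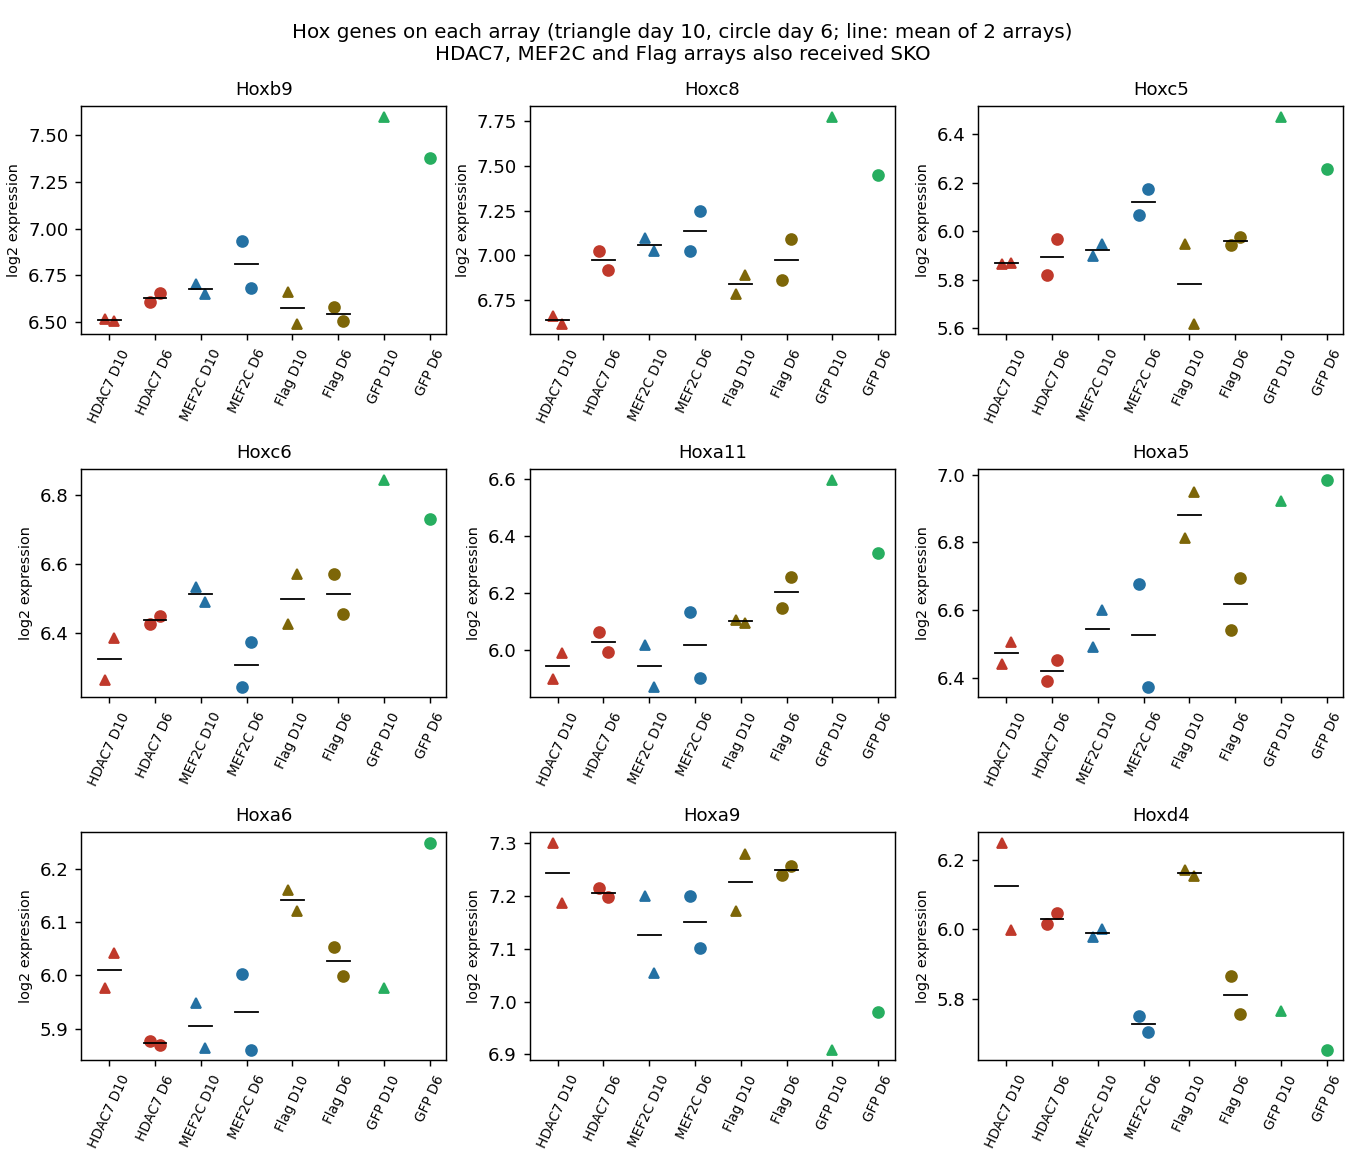
Deposited log2 expression (vertical axis, a separate scale for each gene) of 9 Hox genes on each array, with SKO+HDAC7, SKO+MEF2C, SKO+Flag and GFP from left to right and day 10 left of day 6 within each; short lines are means of 2 arrays. In Hoxb9, Hoxc8, Hoxc5, Hoxc6 and Hoxa11 the 12 SKO points lie below both GFP points, and in Hoxa9 above both.

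In the Hoxd cluster Hoxd4, which patterns the upper neck vertebrae, was the gene called higher than in GFP. In SKO+HDAC7 it read 6.25 and 6.0 at day 10 and 6.01 and 6.05 at day 6. In SKO+MEF2C it read 5.98 and 6.0 at day 10 and 5.75 and 5.70 at day 6, and in SKO+Flag 6.17 and 6.15 at day 10 and 5.87 and 5.76 at day 6. In GFP it read 5.76 at day 10 and 5.65 at day 6. The SKO+HDAC7 arrays all lay above GFP, and of the day 6 arrays both of SKO+MEF2C and 1 of SKO+Flag lay between the GFP arrays. The log2 difference was 0.37 in SKO+HDAC7 (SE 0.07, limma adjusted p = 0.00139), 0.15 in SKO+MEF2C (adjusted p = 0.132) and 0.28 in SKO+Flag (adjusted p = 0.00841).

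By cluster, the genes called lower were most frequent among the Hoxc genes. Of 9 Hoxc genes, 5 were called lower in SKO+HDAC7 (median log2 difference -0.26), 5 in SKO+MEF2C (median -0.29) and 6 in SKO+Flag (median -0.28), with 0 called higher. Of 9 Hoxb genes, 3 were called lower in SKO+HDAC7 (median -0.12), 2 in SKO+MEF2C (median -0.13) and 3 in SKO+Flag (median -0.16), again with 0 higher. Of 10 Hoxa genes, 3 were called lower in SKO+HDAC7 (median -0.17), 4 in SKO+MEF2C (median -0.14) and 1 in SKO+Flag (median -0.01), with Hoxa9 higher in each. Of 9 Hoxd genes, Hoxd4 was called higher in SKO+HDAC7 (median 0.04), and Hoxd4 higher and Hoxd1 lower in SKO+Flag (median -0.06). In SKO+MEF2C limma called 0 Hoxd genes (median 0.04), with 1 at an unadjusted p under 0.05. Called lower over all genes were 15.9% in SKO+HDAC7, 14.6% in SKO+MEF2C and 18.2% in SKO+Flag. Some of the Hoxc calls were lost under at least 1 alternative setting or left-out array. These were Hoxc9 in SKO+HDAC7, Hoxc4 and Hoxc10 in SKO+MEF2C, and Hoxc4, Hoxc10 and Hoxc11 in SKO+Flag. Some calls of Hoxa and Hoxb genes were lost as well. Differences between clusters were not tested.

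By paralog group, groups 5 to 8, the trunk genes, held 5 genes called lower of 10 in SKO+HDAC7, 5 in SKO+MEF2C and 4 in SKO+Flag, and 0 called higher. Groups 1 to 4 held 2 genes called lower of 11 in SKO+HDAC7, 2 in SKO+MEF2C and 3 in SKO+Flag. Groups 9 to 13 held 4 called lower of 16 in each arm. Over all genes 15.9% were called lower in SKO+HDAC7, 14.6% in SKO+MEF2C and 18.2% in SKO+Flag. Differences between these ranges were not tested. The genes of groups 12 and 13, used at the tail and the ends of the limbs, differed from GFP by -0.18 to 0.12 on the log2 scale, and limma called 0 of them in these 3 comparisons, with 0 at an unadjusted p under 0.05. Among them, Hoxc12 and Hoxc13 were above the background gauge on no array, Hoxb13 on 1 and Hoxd12 on 12. A difference in such low signals could go unseen. Hoxb9 and Hoxa9, paralogs of group 9, differed from GFP in opposite directions in every arm.

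Other members were called in 1 or 2 arms. Hoxb4, a gene of the neck and of blood stem cells, was called lower in SKO+HDAC7 (log2 difference -0.35) and SKO+Flag (-0.26), and Hoxc4 in SKO+MEF2C (-0.29) and SKO+Flag (-0.28). The GFP arrays read 6.40 at day 6 and 6.03 at day 10 for Hoxc4. At day 10 Hoxc4 read 6.06 and 5.82 in SKO+MEF2C and 5.95 and 5.95 in SKO+Flag, close to GFP. Hoxa6 was called lower in SKO+HDAC7 (-0.17, though lower in only 2 of 4 same-day pairs) and SKO+MEF2C (-0.19). Genes called in a single arm were Hoxb2 (-0.18) and Hoxc9 (-0.26) in SKO+HDAC7, Hoxa10 (-0.22) and Hoxb1 (-0.23) in SKO+MEF2C, and Hoxb6 (-0.28), Hoxc11 (-0.24) and Hoxd1 (-0.27) in SKO+Flag. Hoxc11 was above the background gauge on no array, and its call was lost without any 1 of the 4 SKO+Flag arrays (limma adjusted p up to 0.0934), after quantile normalization and after median centring (adjusted p up to 0.104). Most of the other calls in this group also rested on single arrays or on the settings. Median centring removed the calls of Hoxa6, Hoxb2 and Hoxc9 in SKO+HDAC7, Hoxa6 in SKO+MEF2C, and Hoxb4 and Hoxc4 in SKO+Flag. A trend and robust prior removed those of Hoxa6 and Hoxb2 in SKO+HDAC7 and of Hoxa6, Hoxa10 and Hoxb1 in SKO+MEF2C. Fitting the compared groups alone removed those of Hoxa6, Hoxb2 and Hoxc9 in SKO+HDAC7 and of Hoxb4 and Hoxc4 in SKO+Flag. In SKO+HDAC7, Hoxa6 and Hoxc9 were not called without the replicate 1 array of either day, nor Hoxa6 and Hoxb2 without replicate 2 of day 6, nor Hoxb2 without either day 10 array (adjusted p up to 0.123). In SKO+MEF2C, Hoxa10, Hoxb1 and Hoxc4 were not called without replicate 1 of day 6, Hoxa6, Hoxa10 and Hoxb1 without replicate 2 of day 6, Hoxa10 without replicate 1 of day 10, and Hoxa6, Hoxb1 and Hoxc4 without replicate 2 of day 10 (adjusted p up to 0.0975). In SKO+Flag, Hoxb4 was not called without replicate 1 of either day nor Hoxc4 without replicate 2 of day 6 (adjusted p up to 0.0658).

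When HDAC7 or MEF2C was added to SKO, few Hox genes passed the test. In SKO+HDAC7 against SKO+Flag, 1 of 37 Hox genes (2.70%) was called, against 10.9% of all genes. In SKO+MEF2C against SKO+Flag, 1 of 37 (2.70%) was called, against 10.3% of all genes. The differences lay between -0.30 and 0.21 for HDAC7 and between -0.21 and 0.21 for MEF2C on the log2 scale. For all 37 Hox genes in both comparisons the 95% interval lay within 0.5 of 0. That also held for most genes tested, 19200 of 19935 for HDAC7 and 19217 for MEF2C. The Hox median was 0.01 for HDAC7 (0.02 over all genes) and -0.01 for MEF2C (0.01 over all genes). At an unadjusted p under 0.05 there were 9 of 37 Hox genes for HDAC7 (5054 of 19935 over all genes) and 12 of 37 for MEF2C (4499 over all genes). Both comparisons share the 4 SKO+Flag arrays, and single arrays moved both counts. Without replicate 2 of SKO+Flag at day 6 HDAC7 had 0, and without replicate 2 of SKO+Flag at day 10 or of SKO+HDAC7 at day 6 it had 2. For MEF2C the count ran from 0, without replicate 1 of SKO+Flag at day 6 or either SKO+MEF2C array of day 10, to 3, without replicate 1 of SKO+MEF2C at day 6.

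**Figure D3:**
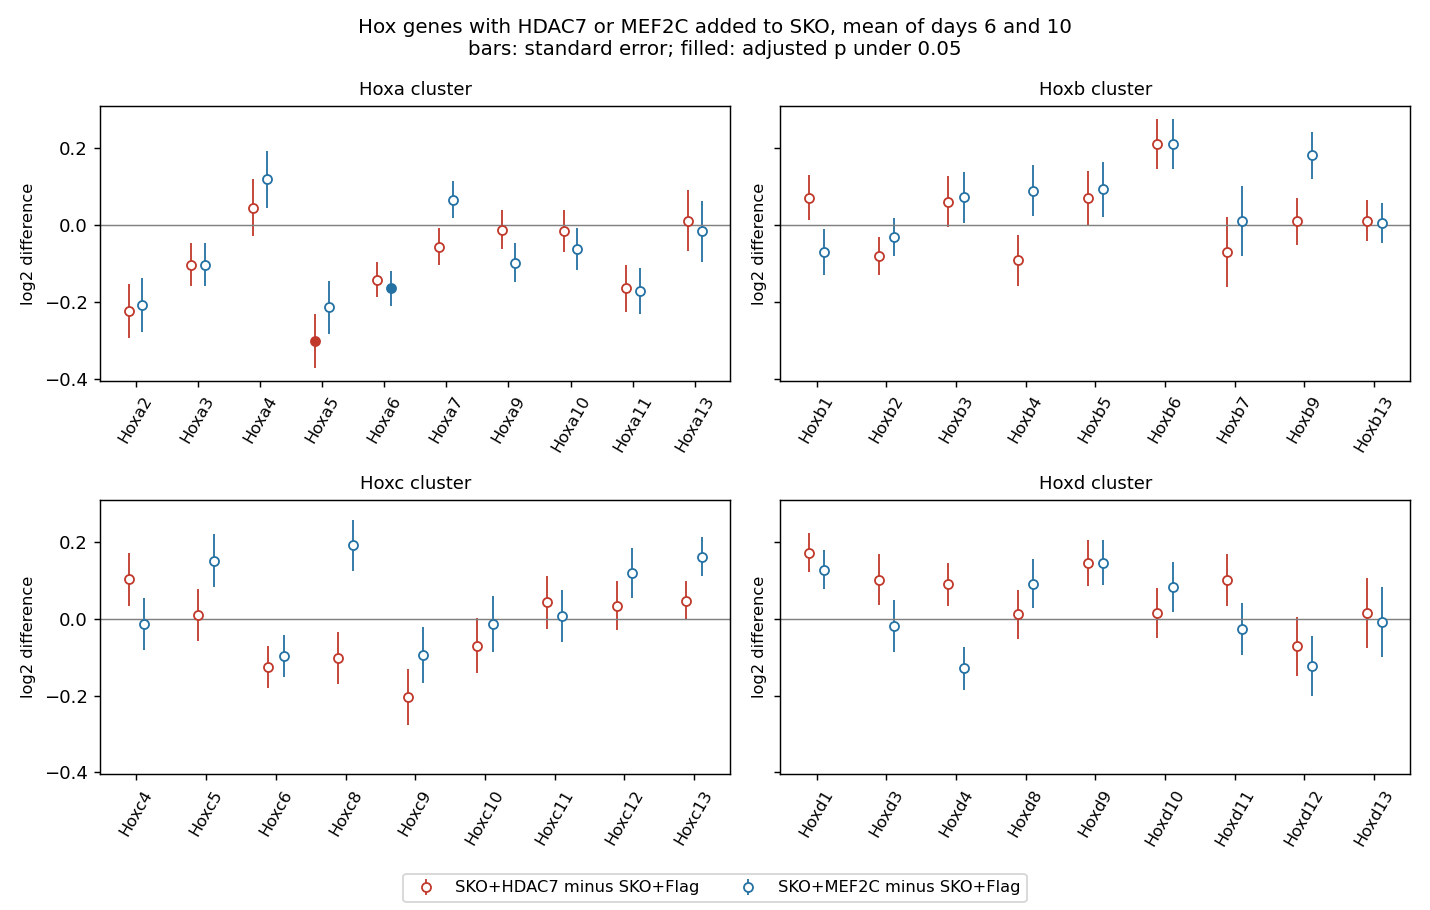
Log2 difference from SKO+Flag (vertical axis) of each measured Hox gene, in cluster order along the horizontal axis, for SKO+HDAC7 and SKO+MEF2C as the mean of days 6 and 10. Bars are standard errors and filled points are called genes. The points lie between -0.30 and 0.21, with Hoxa5 called for HDAC7 and Hoxa6 for MEF2C.

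The gene called with HDAC7 was Hoxa5. It read 6.44 and 6.51 at day 10 and 6.39 and 6.45 at day 6 in SKO+HDAC7, against 6.81 and 6.95 at day 10 and 6.54 and 6.70 at day 6 in SKO+Flag. In SKO+MEF2C it read 6.49 and 6.60 at day 10 and 6.68 and 6.37 at day 6, and in GFP 6.92 at day 10 and 6.99 at day 6. Every SKO+HDAC7 array lay below every SKO+Flag array, and SKO+MEF2C overlapped both. The log2 difference of SKO+HDAC7 from SKO+Flag was -0.30 (SE 0.07, limma adjusted p = 0.0184), lower in 8 of 8 same-day pairs of arrays. The call was lost without any 1 of 4 arrays (SKO+Flag replicate 2 at either day, SKO+HDAC7 replicate 1 at either day), where the adjusted p rose to at most 0.0689. For SKO+MEF2C the difference was -0.21 (adjusted p = 0.0834).

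The gene called with MEF2C was Hoxa6, the neighbour of Hoxa5 and a thoracic gene. It read 5.95 and 5.86 at day 10 and 6.0 and 5.86 at day 6 in SKO+MEF2C, against 6.16 and 6.12 at day 10 and 6.05 and 6.0 at day 6 in SKO+Flag. In SKO+HDAC7 it read 5.98 and 6.04 at day 10 and 5.88 and 5.87 at day 6, and in GFP 5.98 at day 10 and 6.25 at day 6. The arrays of SKO+MEF2C overlapped those of SKO+Flag at 1 array of day 6. SKO+MEF2C was lower in 7 of 8 same-day pairs, by 0.17 on the log2 scale (SE 0.05, limma adjusted p = 0.0465). The call was lost without each of the 8 arrays in turn other than replicate 1 of SKO+MEF2C at day 6 (adjusted p up to 0.169), with a trend and robust prior (adjusted p = 0.12), with the compared groups fitted alone (adjusted p = 0.0861) and with the experiment number as a replicate block within each day (adjusted p = 0.0557). For SKO+HDAC7 the difference was -0.14 (adjusted p = 0.0784), lower in 8 of 8 pairs.

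Hoxb6, a thoracic gene of the Hoxb cluster, was the highest with both factors without passing the test. It read 6.21 to 6.53 in SKO+HDAC7 and 6.31 to 6.46 in SKO+MEF2C, against 6.18 to 6.21 in SKO+Flag, and 6.45 and 6.51 in GFP. The difference from SKO+Flag was 0.21 in each comparison (limma adjusted p = 0.0638 with HDAC7 and 0.0677 with MEF2C), higher in 8 of 8 pairs of each. Hoxa2 differed from SKO+Flag by -0.22 with HDAC7 (adjusted p = 0.0694) and by -0.21 with MEF2C (adjusted p = 0.097).

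Between the factors, 2 of 37 Hox genes (5.41%) were called in SKO+HDAC7 against SKO+MEF2C, against 22% of all genes. Hoxc8 was lower in SKO+HDAC7, by 0.29 on the log2 scale (SE 0.07, limma adjusted p = 0.0087), in 7 of 8 same-day pairs. It remained called without each of the 8 arrays in turn (adjusted p up to 0.039). Hoxd4 was higher in SKO+HDAC7 by 0.22 (SE 0.06, adjusted p = 0.0163), in 7 of 8 pairs, and lost its call without replicate 2 of day 6 or replicate 1 of day 10 of either arm (adjusted p up to 0.0589). At an unadjusted p under 0.05 there were 7 of 37 Hox genes, against 6471 of 19935 over all genes.

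At each day taken alone there were few calls. At day 10 limma called Hoxa5 for HDAC7 against SKO+Flag (log2 difference -0.41, SE 0.10, adjusted p = 0.0314), where 7.27% of all genes were called. That call was lost without replicate 2 of SKO+Flag or either SKO+HDAC7 array of day 10 (adjusted p up to 0.166), and with the compared groups fitted alone (adjusted p = 0.0664). For MEF2C at day 10 limma called 0 Hox genes (7.01% of all genes), with 7 at an unadjusted p under 0.05 (3701 over all genes) and 0 to 1 under the other settings. At day 6 it called 0 for HDAC7 (4.58% of all genes), with 4 at an unadjusted p under 0.05 (3968 over all genes) and 1 without replicate 2 of SKO+HDAC7, and 0 for MEF2C (3.10% of all genes), with 3 at an unadjusted p under 0.05 (2715 over all genes) and 0 under the other settings. The change of the HDAC7 effect between days was called in limma for 0 Hox genes (0.125% of all genes), with 2 at an unadjusted p under 0.05 (2372 over all genes). That of the MEF2C effect was called for 0 (0.0853% of all genes), with 0 at an unadjusted p under 0.05 (1337 over all genes). The other settings tried gave 0 for both of these changes as well.

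Within an arm, day 10 differed from day 6 for few Hox genes. In SKO+HDAC7, Hoxc8 alone was called, at 6.66 and 6.61 on day 10 against 7.03 and 6.92 on day 6 (log2 difference -0.33, SE 0.09, limma adjusted p = 0.0385), where 14.6% of all genes were called. Both day 10 arrays lay below both day 6 arrays, and the call was lost without any 1 of the 4 (adjusted p up to 0.208). In SKO+Flag, Hoxd4 alone was called, at 6.17 and 6.15 on day 10 against 5.87 and 5.76 on day 6 (log2 difference 0.35, SE 0.08, limma adjusted p = 0.021), where 8.08% of all genes were called. It lost its call without replicate 2 of day 6 or either array of day 10 (adjusted p up to 0.147), while without replicate 1 of day 6 there were 3 Hox genes called and without replicate 2 of day 10 there were 2. In SKO+MEF2C limma called 0 Hox genes (3.08% of all genes), with 4 at an unadjusted p under 0.05 (2749 over all genes) and 0 under every other setting tried. Hoxd4 differed there by 0.26 (adjusted p = 0.131), again higher in 4 of 4 pairs of arrays.

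The Hoxc8 difference from GFP stood beside a difference between the 2 GFP arrays themselves. In GFP, with 1 array a day and no test, Hoxc8 read 7.78 at day 10 against 7.45 at day 6. Over the Hox genes the day 10 minus day 6 difference in GFP lay between -0.36 (Hoxc4) and 0.67 (Hoxd8, 6.76 at day 10 against 6.09 at day 6). Its median size was 0.113, against 0.107 over all genes. On the 12 SKO arrays Hoxd8, a trunk gene, stayed between 6.30 and 6.70, with the GFP arrays on either side.

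Set against GFP at each day, SKO+Flag had 9 Hox genes called at day 10 (26.9% of all genes) and 6 at day 6 (24.1% of all genes). At day 10 they were Hoxa9 and Hoxd4 higher and Hoxb9, Hoxc8, Hoxc5, Hoxa11, Hoxc6, Hoxb13 and Hoxd1 lower. At day 6 they were Hoxa9 higher and Hoxb9, Hoxc8, Hoxc4, Hoxd10 and Hoxa5 lower. Hoxb13 was above the background gauge on the day 10 GFP array alone (5.30), against 5.03 and 4.96 in SKO+Flag at day 10. The day 10 calls of Hoxb13 and Hoxd1 were lost after quantile normalization and after median centring, and that of Hoxa9 after quantile normalization. Of the day 6 calls, that of Hoxb9 alone held throughout. Those of Hoxa5 and Hoxd10 were lost after median centring and that of Hoxa9 after quantile normalization. Hoxc8 and Hoxa5 lost theirs without replicate 1 of SKO+Flag at day 6, Hoxc4 and Hoxd10 without replicate 2, and Hoxa9 without either. Hoxb9 differed by -1.02 at day 10 (limma adjusted p = 2.33e-05) and by -0.83 at day 6 (adjusted p = 0.00016). Hoxc8 differed by -0.94 at day 10 (adjusted p = 9.02e-05) and by -0.47 at day 6 (adjusted p = 0.0118). The change of the SKO+Flag difference between days, a comparison added after the data were seen, was called for 0 Hox genes in limma, where 5.06% of all genes were called. At an unadjusted p under 0.05 there were 10 of 37 Hox genes, against 3298 of 19935 over all genes. For Hoxc8 it was -0.47 (adjusted p = 0.163). It was called for 1 Hox gene without replicate 1 of SKO+Flag at day 10 and for 2 without replicate 2. Without replicate 1 of SKO+Flag at day 6 the day 6 count was 3, and with the compared groups fitted alone it was 3 at each day.

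**Figure D4:**
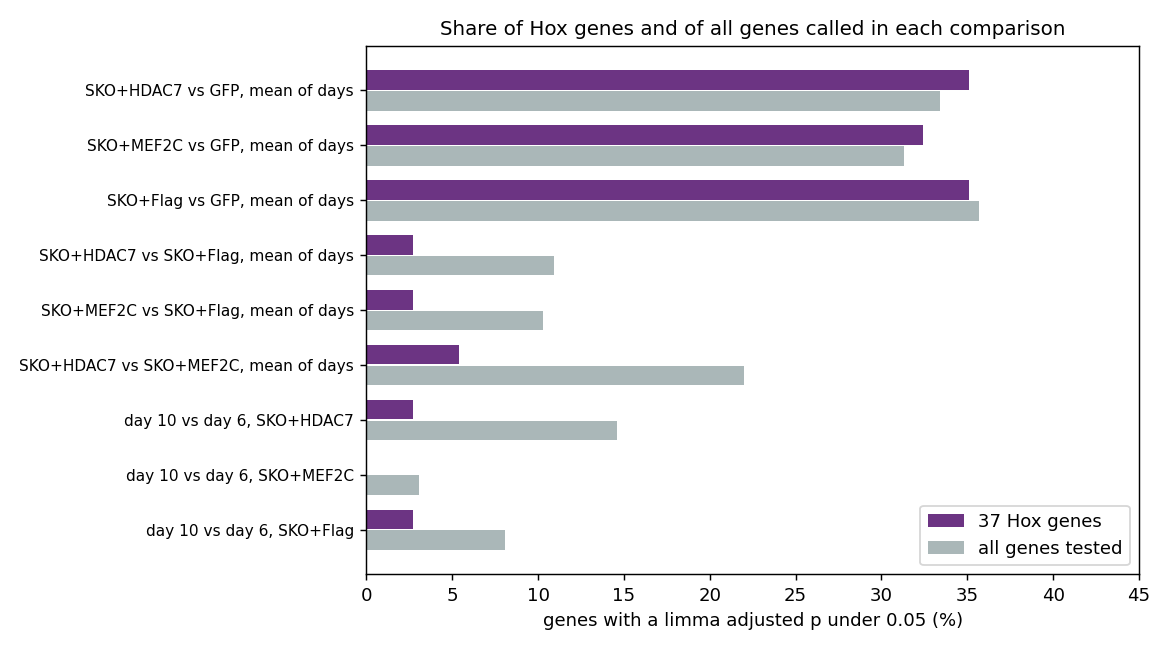
Share of genes called (horizontal axis, percent) in each comparison (vertical axis), for the 37 Hox genes and for all 19935 genes. The shares are close for each SKO arm against GFP (35.1% of Hox genes in SKO+Flag). Where HDAC7 or MEF2C is set against Flag, the Hox bar stands for 1 of 37 genes (2.70%), beside 10.9% of all genes for HDAC7 and 10.3% for MEF2C, a difference that was not tested.

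The partners and regulators of Hox genes were read in the same fit, from lists chosen with earlier results of these data known. Against GFP, 17.5% of all genes were called higher and 15.9% lower in SKO+HDAC7, 16.6% and 14.6% in SKO+MEF2C, and 17.5% and 18.2% in SKO+Flag. Whether the lists differ from all genes was not tested. Of 8 TALE cofactors, 3 were called lower than in GFP in SKO+HDAC7 and 1 higher and 1 lower in SKO+MEF2C, and in SKO+Flag Pknox2 and Meis3 (-0.20) were lower and Pbx3 higher (0.30). In GFP Pbx3 read 6.87 at day 6 and 7.49 at day 10. In SKO+Flag it read 7.49 and 7.42 at day 6 and 7.37 and 7.66 at day 10. The day 10 GFP array thus lay between the SKO+Flag arrays of that day. Pknox2 was above the background gauge on 5 arrays and on none of the 4 SKO+Flag arrays, so it has only an upper bound there. Of 26 trithorax and Polycomb genes, against GFP 13 were called higher in SKO+HDAC7, 8 higher and 1 lower in SKO+MEF2C, and 10 higher in SKO+Flag. Among them were Ezh1 and Ezh2, the histone methyltransferases of a Polycomb repressive complex, Suz12, a core subunit of it, and Kdm6a, a demethylase of the same mark, with log2 differences of 1.22, 0.72, 0.98 and 0.91 in SKO+Flag. Between the factors, 10 of the 26 were called higher and 1 lower in SKO+HDAC7 than in SKO+MEF2C. In either direction 22% of all genes were called there.

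Genes on either side of the clusters were read as well. Of 16 neighbours, against GFP 2 were called higher and 1 lower in SKO+HDAC7, 5 higher in SKO+MEF2C and 3 higher in SKO+Flag. Over all genes 17.5% were called higher in SKO+HDAC7, 16.6% in SKO+MEF2C and 17.5% in SKO+Flag. In SKO+Flag Nfe2l3 (1.34) and Snx10 (0.29) beside the Hoxa cluster and Cbx5 (0.62) beside the Hoxc cluster were those called. Of 6 microRNA genes inside the clusters, Mir196a-1, whose product cleaves Hoxb8 transcripts, was called lower in SKO+HDAC7 than in SKO+Flag (-0.23, limma adjusted p = 0.0445), but it was above the background gauge on 1 array and 4 of the 6 were above it on none.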

How the data were processed

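RNA from 14 fibroblast samples was hybridised to 1 Affymetrix whole-transcript array each, and groups were taken from the sample titles. The authors deposited log2 expression per probe set. The submitters' processing notes name RMA and Partek, without versions. The genome build of the array annotation is not given in the sources used here.

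No further normalization was applied to the deposited log2 values. Of 28815 probe sets, 21780 had 1 gene symbol and were kept. A gene with several probe sets (998 genes, no Hox gene among them) was represented by the one with the highest mean, which left 19935 genes. Entrez IDs checked against the RefSeq table of GRCm38.p6 changed 0 symbols. limma 3.58.1 in R 4.3.3 was fitted to 8 groups (vector by day), with 6 residual and 4.71 prior degrees of freedom, after tests on simulated data. The spread of the GFP groups, with 1 array each, is taken from the other groups. Values for both days are means of the day differences.

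All Hox genes of the 4 clusters could be named. Full values were given for members called in a comparison, or for the 5 with the largest change in each direction where more than 8 were called. Members not called were described by range, count or level, and from each other list at most 4 called genes per comparison were named, by size. The members and lists were chosen with earlier results of these data known. Alternatives were a trend prior with robust estimation, median centring, quantile normalization, a fit of the compared groups only, genes above the median level, the mean over probe sets, replicate blocks and leaving out each array. RefSeq promoters were matched by symbol.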

Additional observations from a re-analysis of the deposited data

How the results depend on the processing

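The 60 called differences of Hox genes kept their direction under all alternatives tried: of 588 alternative values, 478 stayed on the same side of the threshold, 110 lost the call and 0 reversed. For 30 of the 60 the call held throughout, among them Hoxa11, Hoxb9, Hoxc5, Hoxc6 and Hoxc8 against GFP in all 3 SKO arms as the mean of both days.

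Over the alternatives other than leaving out arrays, the count of called Hox genes against GFP was 10 to 14 in SKO+HDAC7, 10 to 13 in SKO+MEF2C and 10 to 15 in SKO+Flag, and 2 to 3 in SKO+HDAC7 against SKO+MEF2C. Counts that moved by over 1.5 times follow. With the compared groups alone, day 10 against day 6 had 0 in SKO+Flag and 2 in SKO+HDAC7, SKO+HDAC7 against SKO+Flag at day 10 had 0, and SKO+Flag against GFP had 3 at day 6 and 3 at day 10. Among genes above the median level, where fewer genes are tested, SKO+HDAC7 against SKO+Flag had 2, SKO+MEF2C against SKO+Flag 3 (1 at day 10), day 10 against day 6 in SKO+Flag 2, and the added change of the SKO+Flag difference from GFP 1. With a trend and robust prior SKO+MEF2C against SKO+Flag had 0. With the mean over probe sets day 10 against day 6 in SKO+Flag had 2. With median centring, and with quantile normalization, SKO+HDAC7 against SKO+Flag had 3, and quantile normalization gave 1 for SKO+MEF2C against SKO+Flag at day 10. With the experiment number as a replicate block within each day, SKO+MEF2C against SKO+Flag had 0 and day 10 against day 6 in SKO+HDAC7 had 0. A replicate block shared by both days moved no count. The numbers were not shown to pair the samples, since replicate differences of 2 groups correlated between -0.24 and 0.18 over 15 pairs of groups. GFP has no number and entered no block. The cause of these moves was not tested except where stated.

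Leaving out each array in turn gave 0 to 2 for SKO+HDAC7 against SKO+Flag (0 to 1 at day 6, 0 to 1 at day 10), 0 to 3 for SKO+MEF2C against SKO+Flag (0 to 0 at day 6, 0 to 1 at day 10) and 1 to 3 for SKO+HDAC7 against SKO+MEF2C. Against GFP it gave 12 to 13 in SKO+HDAC7, 7 to 10 in SKO+MEF2C, with 7 without replicate 1 at day 6, and 11 to 12 in SKO+Flag (3 to 6 at day 6, 8 to 10 at day 10). For day 10 against day 6 it gave 0 to 0 in SKO+HDAC7, 0 to 0 in SKO+MEF2C and 0 to 3 in SKO+Flag. The changes between days ranged 0 to 0 for HDAC7 and for MEF2C and 0 to 2 for SKO+Flag against GFP. Without a GFP array the mean of both days could not be estimated.

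The GFP groups hold 1 array each, so differences from GFP rest on 2 arrays. Signals near background, as for Hoxc11, limit what can be measured.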
